A study of Mus musculus with 17 samples.

Results

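Chemokines and their receptors were examined in mouse gastrocnemius, the large muscle of the calf. Members were every protein-coding gene of the deposited table whose symbol begins with Ccl, Cxcl, Ccr, Cxcr, Cx3cl, Cx3cr, Xcl, Xcr or Ackr followed by a digit, and this rule found 60 genes among the 45777 listed. They were 37 ligands, 19 signalling receptors and 4 atypical receptors (Ackr1 to Ackr4). Of these, 28 passed a filter on low counts and were tested: 19 ligands, 5 signalling receptors and all 4 atypical receptors. The other 32 had too few counts for a test and are described by their counts.

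The study asked how the muscle transcriptome differed with age and whether allulose, a low-calorie sugar that differs from fructose at a single carbon, altered it. Libraries from 17 mice in 3 groups were used, and all mice were male, individually housed, and on an AIN-93 semi-purified diet. By the labels the Mature mice (n = 7) were 8 weeks old when obtained, and the Middle-aged mice (n = 6) and ALL mice (n = 4) were 12 months old. The assigned diet then lasted 12 weeks, with 3% D-allulose added for ALL mice and none for the other groups, so these ages are not the ages at sampling. The growth description gives the strain as C57BL/6J and the strain field as C56BL/6J. Each library was from 1 mouse, so the spread given here is between mice.

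Chemokines are small secreted proteins that guide the movement of leukocytes and other cells along gradients held on proteoglycans. Homeostatic chemokines are made constantly by stromal and endothelial cells, whereas inflammatory chemokines are induced during injury or infection. Signalling receptors couple to inhibitory G proteins and drive migration, while atypical receptors bind and remove chemokines without that coupling. In skeletal muscle the family is best known for recruiting monocytes and other leukocytes after injury, and for positioning resident immune and progenitor cells at rest.

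Libraries held 49774656 to 72640511 counts, and 31 to 41 of the 60 members had at least 1 count in a given mouse. Mitochondrially encoded genes took 15.2% to 23.5% of the counts, and libraries fell into 2 sets by this share: 7 libraries at 20% or more (3 Mature, 3 Middle-aged and 1 ALL) and 10 below it (4, 3 and 3). For age differences that turned on this split, the values of both sets are given. The tissue label was checked against markers: all 12 muscle fibre genes were tested and summed to between 151600 and 197500 CPM (counts scaled to library size) in every mouse. One label names adipose tissue and liver as the source of RNA, and of 8 hepatocyte markers Ttr, Serpina1c, Fgb and Hnf4a had 0 counts in all mice, while Alb had 139 counts in 10 mice. Cyp2e1, of the same list, had 5710 counts over all 17 mice and was lower in ALL than in Mature mice (logFC −2.37 ± 0.66 SE, adjusted p = 0.0384, edgeR). All 8 adipocyte markers were tested, and they summed to between 136 CPM (ALL replicate 2) and 359 CPM (Middle-aged replicate 1). Whether adipose tissue was part of the samples was not tested.

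Levels between genes were compared in TPM, the deposited unit that accounts for transcript length and depth. A set of 3 ligands dominated the family. Cxcl12, the ligand of Cxcr4 and Ackr3 that retains stem cells and leukocytes in tissue, had a mean TPM of 25.4 over the 17 mice. Cxcl14, an epithelial and stromal chemokine, averaged 24.1 TPM, and Ccl11, the eosinophil attractant eotaxin, averaged 24.0 TPM. These 3 genes took 21.5%, 20.4% and 20.2% of the TPM summed over all members, and their ranges over mice overlapped (18.2 to 32.3 TPM for Cxcl12, 9.79 to 51.7 TPM for Cxcl14 and 14.7 to 44.7 TPM for Ccl11). Over all mice their order was not fixed. Cxcl12 exceeded Cxcl14 in every Mature mouse (group means 27.8 and 18.7 TPM). Cxcl14 exceeded Cxcl12 in every Middle-aged mouse (group means 31.6 and 24.0 TPM), and the order varied between ALL mice. The order of Ccl11 beside either gene varied between mice in each group.

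Ackr3, an atypical receptor that removes Cxcl12, was the next member in order at a mean of 11.4 TPM, and its highest mouse, at 17.95 TPM, lay within the ranges of Cxcl14 and Ccl11 but below every mouse for Cxcl12. A middle group followed. Ccl27a, a ligand of Ccr10 best known from skin, averaged 5.30 TPM, and Ccl6, a macrophage product in mice, averaged 4.52 TPM. The lymphatic ligand Ccl21a and the thymic and gut ligand Ccl25 both averaged 3.93 TPM, and Ccl21b averaged 2.83 TPM. Among signalling receptors, only Cxcr4 (1.81 TPM) and the monocyte receptor Ccr2 (1.10 TPM) averaged over 1 TPM. The other tested members averaged between 0.0558 TPM (Cx3cr1) and 1.52 TPM (Ccl9), and neighbours in this order overlapped between mice.

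**Figure D1:**
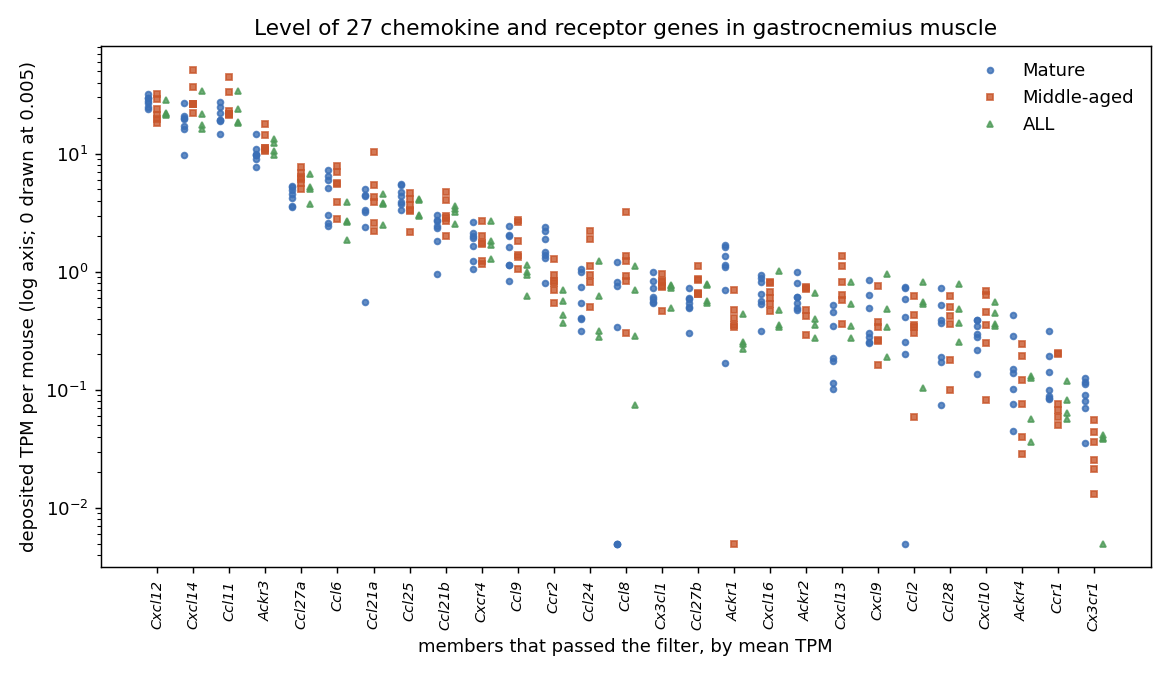
Deposited TPM (log axis) of 27 members that passed the filter, ordered by mean, with 1 point per mouse and colours for Mature (n = 7), Middle-aged (n = 6) and ALL (n = 4); values of 0 are drawn at 0.005. Cxcl12, Cxcl14 and Ccl11 lie at the top with overlapping ranges, and Cx3cr1 is lowest.

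Ligands were far better represented than the receptors they bind. Ccl11 averaged 24.0 TPM, whereas its receptor Ccr3, carried by eosinophils, averaged 0.000879 TPM, on 2 counts in a single Middle-aged mouse. Ccl25 averaged 3.93 TPM and its receptor Ccr9 0.00244 TPM, on 9 counts in 3 mice. Ccl27a averaged 5.30 TPM and its receptor Ccr10 0.0178 TPM, on 24 counts in 5 mice. Ccr7, the receptor of the Ccl21 ligands on T cells and dendritic cells, averaged 0.0289 TPM, on 40 counts in 7 mice. The lymphocyte receptors Cxcr3, Cxcr6 and Cxcr5 averaged 0.0420, 0.0312 and 0.00589 TPM, and their ligands Cxcl9, Cxcl16 and Cxcl13 averaged 0.424, 0.637 and 0.515 TPM. T cell and NK cell markers were low as well: of 14, 1 passed the filter. Cd3d, Cd3e and Cd8b1 had 11, 18 and 0 counts in all, while Cd2 had 159 counts in 17 mice and Il7r 94 in 13. Of 12 B cell and plasma cell markers 8 were tested, and their levels are given below. Cxcl12, at 25.4 TPM, stood beside 1.81 TPM for Cxcr4 and 11.4 TPM for Ackr3. The order was the other way for Ccr2, which at 1.10 TPM exceeded its ligands Ccl2 (0.416 TPM), Ccl12 (0.187 TPM) and Ccl7 (0.155 TPM).

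**Figure D2:**
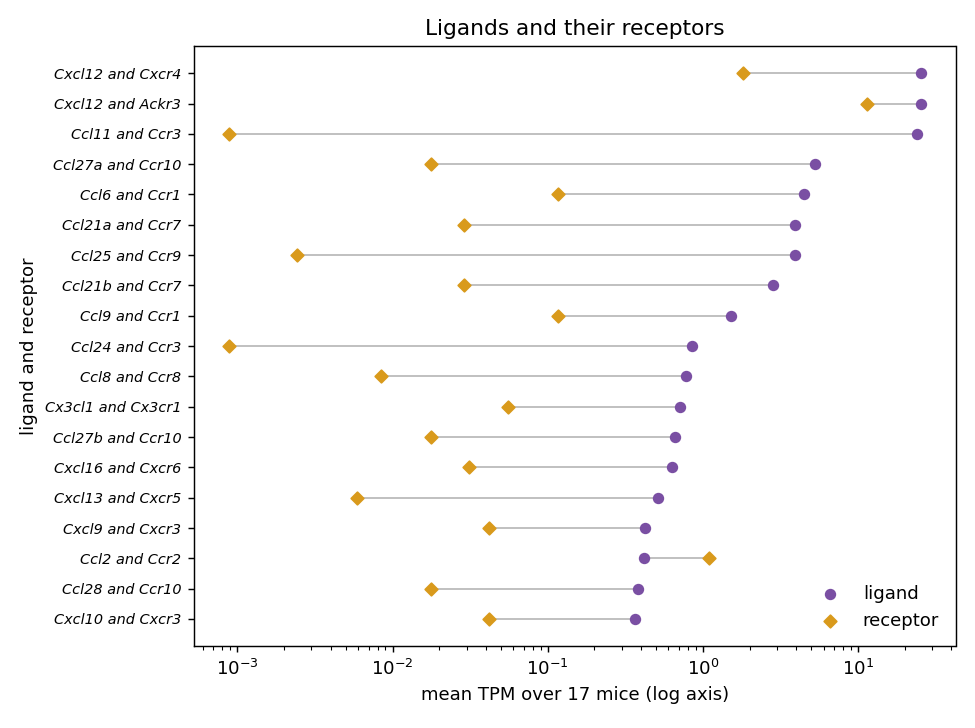
Mean TPM over 17 mice (log axis) of tested ligands (circles) and a receptor each is known to bind (diamonds), with a line joining each pair. The ligand lies to the right of its receptor in every pair drawn except Ccl2 and Ccr2, and the widest gap is Ccl11 at 24.0 TPM against Ccr3 at 0.000879 TPM.

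Of the 32 members under the filter, 7 had 0 counts in every mouse: the neutrophil attractants Cxcl3, Cxcl5 and Cxcl15, the related receptor Cxcr1, and Ccl20, Ccl26 and Ccr1l1. A count of 0 allows up to 3 counts, or 0.0404 to 0.0600 CPM in these libraries, so these genes were not detectable at this depth. Over all 32 members under the filter, the median of the highest count per gene was 5. The 25 others had at least 1 count. Classical inflammatory ligands were among them: Cxcl1, a neutrophil attractant, had 71 counts in 13 mice, Cxcl2 had 5 counts in 1 mouse, and the inflammatory CC ligands Ccl3, Ccl4 and Ccl5 had 8, 14 and 73 counts. Cxcr5 had 7, 3 and 3 counts in ALL replicates 1, 2 and 3 and 0 in every other mouse. The 19 counts of Ccr7 in Middle-aged replicate 6 and the 23 counts of Ccl12 in Middle-aged replicate 2 were the highest for those genes. These low values were unevenly spaced, with 1 of the 148 values above 0 equal to 1, 15 equal to 2 and 26 equal to 3, and whether isolated reads were removed before deposit was not tested. Over all 45777 genes, 10847 values were 1, 13525 were 2 and 11189 were 3.

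**Figure D3:**
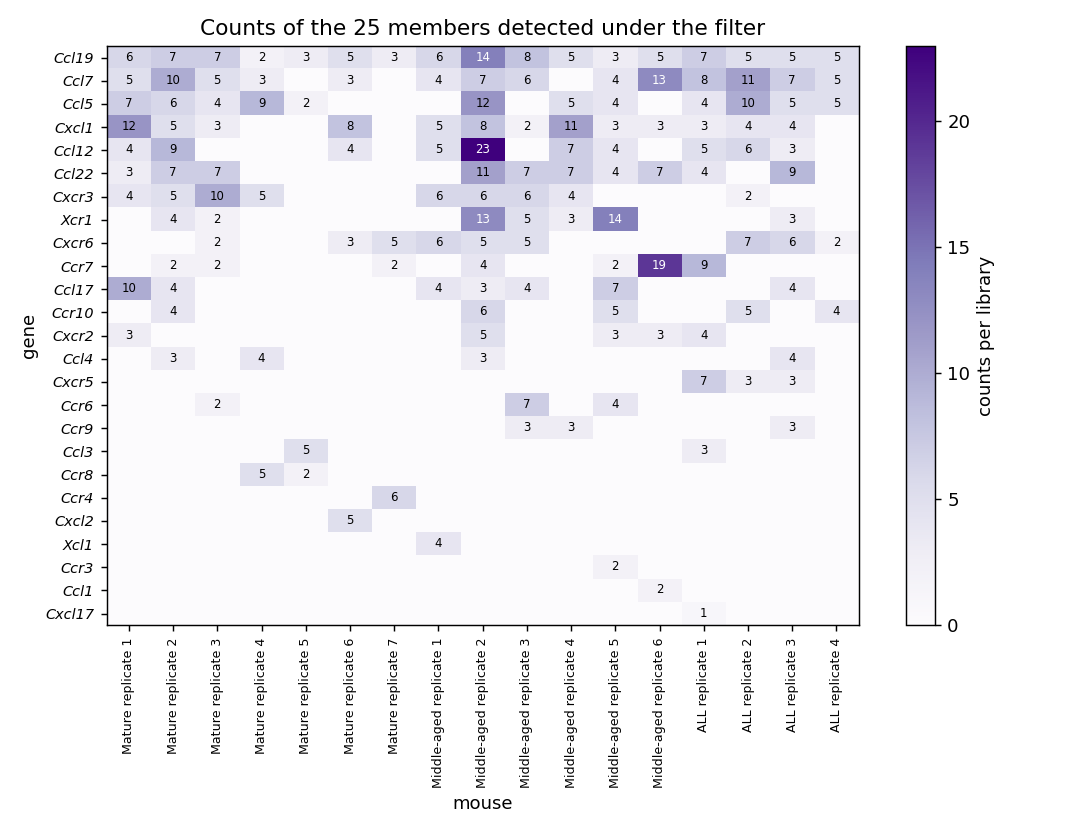
Counts per library (colour and number) of the 25 members under the filter that were detected, with genes in rows ordered by total and the 17 mice in columns; empty cells are 0. Ccl19 was counted in all 17 mice, the highest value is 23 for Ccl12 in Middle-aged replicate 2, and most cells of the lower rows are empty.

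Middle-aged mice were compared with Mature mice to find members that differed with age on the same diet. The ligands Cxcl13, Cxcl14 and Ccl27a rose, by 2.84-fold, 1.66-fold and 1.30-fold, and the receptor Ccr2 fell to 0.517 times its Mature level (edgeR quasi-likelihood test, FDR under 0.05 over 16731 genes). These 4 of 28 tested members compare with 10.3% of all tested genes, and by direction 3 members rose (4.75% of all genes) and 1 fell (5.54%). The log2 fold change (logFC) was above 0 for 15 of the 28 members, compared with 52% of all genes. Its median was 0.38 over the 19 ligands, of which 14 were above 0. It was −0.37 over the 4 atypical receptors and 0.0096 over all genes tested. In whole muscle, fewer cells of a type and less RNA per cell cannot be told apart, and this applies to each difference given here.

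Cxcl13 attracts B cells through Cxcr5 and is made by follicular stromal cells and some macrophages. Its level in Mature mice ranged from 0.0783 to 0.353 CPM with a median of 0.152 CPM, and in Middle-aged mice from 0.262 to 0.841 CPM with a median of 0.536 CPM. The 4 ALL mice had 0.591, 0.383, 0.206 and 0.251 CPM. Middle-aged replicate 4 lay within the Mature range, and the 5 other Middle-aged mice lay above every Mature mouse. The rise was 2.84-fold (logFC 1.51 ± 0.37 SE, adjusted p = 0.0136, edgeR), on 5 to 23 counts per Mature library and 16 to 59 per Middle-aged library. The call was lost without Mature replicates 5 and 7 together (logFC 1.28, adjusted p = 0.0533, edgeR). It was also lost in the libraries with a mitochondrial share of 20% or more (logFC 1.16, adjusted p = 0.263) and in the others (logFC 1.78, adjusted p = 0.0631). Markers of B cells and plasma cells moved in both directions: of 8 tested, Jchain, Ighm and Igkc rose and Sdc1 fell. Their median logFC was −0.60. Their summed level was between 32.9 and 63.9 CPM in Mature mice and between 102 and 213 CPM in Middle-aged mice. In ALL mice it was between 97.6 and 183 CPM. The part of these cells in the Cxcl13 result was not tested. The gene lies at chr5:95956939-95961068. The stretch around its start (chr5:95956689-95956988, plus strand, RefSeq, GRCm38.p6) is shown because it carries a TATA box match, TATAAA in capitals, that begins 46 bases before the start.
Cxcl13: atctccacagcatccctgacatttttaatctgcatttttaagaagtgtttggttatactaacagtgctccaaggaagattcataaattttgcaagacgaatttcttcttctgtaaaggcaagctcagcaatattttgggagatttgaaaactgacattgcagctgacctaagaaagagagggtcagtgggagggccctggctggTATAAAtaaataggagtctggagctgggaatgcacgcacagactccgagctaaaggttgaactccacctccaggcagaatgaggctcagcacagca

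Cxcl14 was one of the 3 most abundant members. In Mature mice it ranged from 10.6 to 28.6 CPM with a median of 22.1 CPM, and in Middle-aged mice from 27.2 to 52.0 CPM with a median of 30.9 CPM. The ALL mice had 25.4, 38.8, 19.4 and 17.96 CPM. Mature replicate 5 was lowest of all mice, Middle-aged replicate 2 was highest, and 4 of the 6 Middle-aged mice lay above every Mature mouse. The rise was 1.66-fold (logFC 0.73 ± 0.21 SE, adjusted p = 0.0317, edgeR). This call was lost when any of Mature replicates 4 or 7 or Middle-aged replicates 2, 3 or 5 was left out, with adjusted p of 0.0582, 0.0566, 0.0901, 0.0517 and 0.0538. It was also lost without Mature replicates 5 and 7 together (adjusted p = 0.0881, edgeR), and the logFC was 0.24 (adjusted p = 0.211, edgeR) in libraries with a mitochondrial share of 20% or more and 1.15 (adjusted p = 0.0666) in the others. Of 11 markers of fibroblasts, a main source of stromal chemokines, 3 fell (Col1a1, Col1a2 and Col3a1) and none rose, and their summed level was 382 to 856 CPM in Mature and 407 to 754 CPM in Middle-aged mice. Cxcl14 lies at chr13:56288643-56296811, and the stretch around a transcript start (chr13:56296502-56296801, minus strand) is shown for its match to the STAT motif TTCNNNGAA, in capitals.
Cxcl14: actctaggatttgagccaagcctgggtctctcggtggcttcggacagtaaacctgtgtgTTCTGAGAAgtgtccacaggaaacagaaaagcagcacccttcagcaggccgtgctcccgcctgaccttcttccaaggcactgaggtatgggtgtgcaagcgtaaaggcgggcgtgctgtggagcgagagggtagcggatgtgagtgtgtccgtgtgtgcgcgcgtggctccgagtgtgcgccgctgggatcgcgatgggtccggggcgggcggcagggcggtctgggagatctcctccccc

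Ccl27a ranged from 4.05 to 5.70 CPM in Mature mice (median 4.43 CPM) and from 4.94 to 7.17 CPM in Middle-aged mice (median 5.88 CPM). ALL mice had 4.82, 6.38, 4.68 and 5.41 CPM. Only Mature replicate 5 overlapped with the Middle-aged range. The rise was 1.30-fold (logFC 0.38 ± 0.10 SE, adjusted p = 0.0250, edgeR), and it missed the threshold without Mature replicates 2 or 6 or Middle-aged replicates 2, 4 or 5, with adjusted p of 0.0524, 0.0507, 0.0755, 0.0546 and 0.0517. It also missed the threshold with scaling by library size alone (adjusted p = 0.0503, edgeR) and at the higher and lower mitochondrial share (logFC 0.36 and 0.40, adjusted p = 0.134 and 0.209). Its near copy Ccl27b ranged from 0.311 to 0.463 CPM in Mature and from 0.488 to 0.646 CPM in Middle-aged mice. These ranges did not overlap, which held upward for 1 of 28 members (1.83% of all genes) and downward for 0 (2.21%), yet the adjusted p was 0.0881 (logFC 0.46 ± 0.17 SE, edgeR). Both values are uncertain as to locus: of the 75-base words of Ccl27a transcripts 33.3% occur in transcripts of other genes, and of those of Ccl27b 98.0%. Ccl27a, at chr4:41769467-41774225, also overlaps Il11ra1, and whether the counting used strand is not given in the sources used here.

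Ccr2, the receptor by which inflammatory monocytes leave the marrow and enter tissue, was the one member that fell. In Mature mice it ranged from 1.71 to 5.10 CPM with a median of 3.23 CPM, and in Middle-aged mice from 1.33 to 2.48 CPM with a median of 1.78 CPM. Mature replicate 5 lay within the Middle-aged range, and the 6 other Mature mice lay above every Middle-aged mouse. The level in Middle-aged mice was 0.517 times that in Mature mice (logFC −0.95 ± 0.22 SE, adjusted p = 0.00857, edgeR). In libraries with a mitochondrial share of 20% or more the logFC was −1.43 (adjusted p = 0.0102, edgeR), and in the others it was −0.54 (adjusted p = 0.364). Of 12 monocyte and macrophage markers Ly6c2, which marks the monocytes that carry Ccr2, was the one that fell (logFC −0.50, adjusted p = 0.00172, edgeR), and none rose. The median logFC over the 12 markers was above 0, at 0.23. Their summed level was 28.4 to 62.0 CPM in Mature and 39.8 to 81.4 CPM in Middle-aged mice. The part of these cells in the Ccr2 value was not tested. Ccr2 lies at chr9:124101918-124109140 near Ccr1 and Ccr3. The stretch around a transcript start (chr9:124101933-124102232, plus strand) held none of the motifs searched, so no base is in capitals.
Ccr2: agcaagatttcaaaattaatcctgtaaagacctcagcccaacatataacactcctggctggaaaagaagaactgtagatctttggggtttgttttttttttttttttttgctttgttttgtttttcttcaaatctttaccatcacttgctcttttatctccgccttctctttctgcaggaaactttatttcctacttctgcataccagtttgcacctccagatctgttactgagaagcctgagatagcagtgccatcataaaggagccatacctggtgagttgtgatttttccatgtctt

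The motifs were searched on both strands in 300 bases, from 250 before to 50 after each start. TATAAA was in 13.6% of 32851 mouse promoters and in 15 of 53 member promoters, which belonged to 46 of the 60 members. The STAT motif TTCNNNGAA was in 8.30% of all and 4 of the 53. The AP-1 motif TGANTCA was in 7.81% and 10 of the 53, and the NF-kB motif (GGG, any pair of bases, then TTTCC) was in 1.63% and 6 of the 53. Several member promoters belong to the same gene or to near copies, so these counts are a description.

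**Figure D4:**
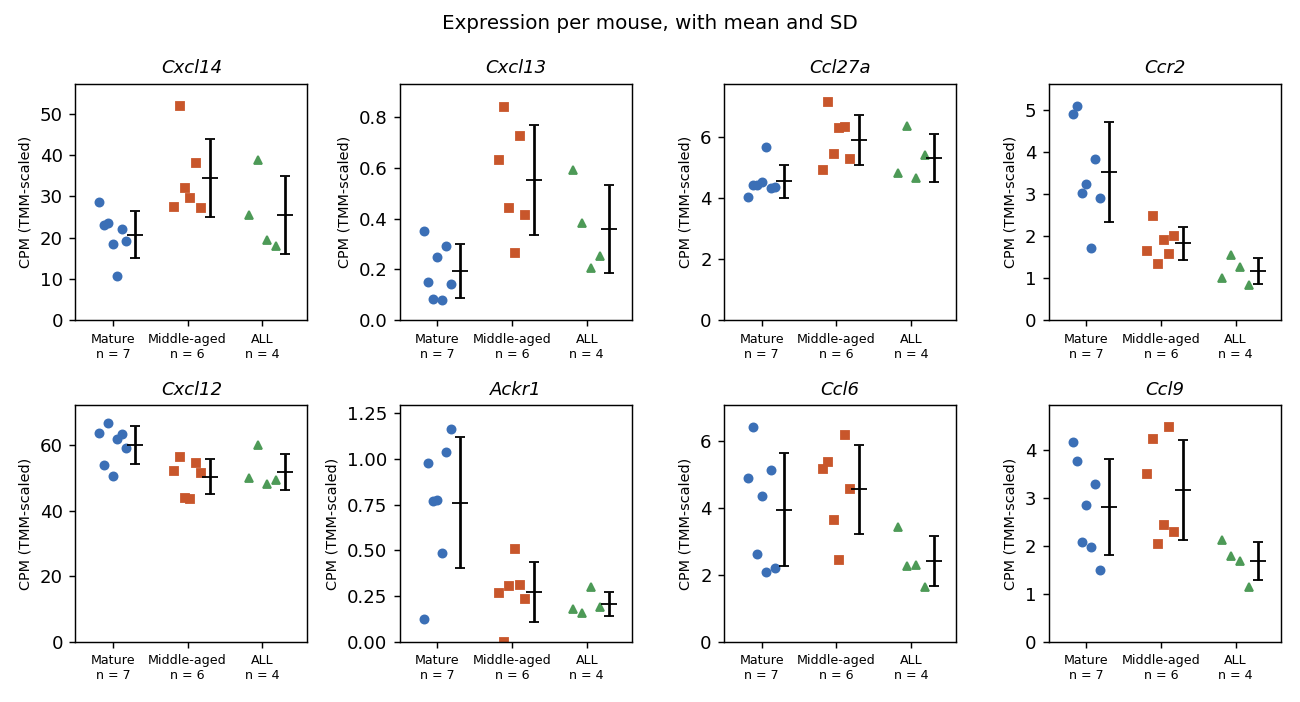
TMM-scaled CPM per mouse of 8 members in Mature (n = 7), Middle-aged (n = 6) and ALL (n = 4), each panel on its own axis from 0, with the mean and SD beside the points. For Ccr2, 6 of 7 Mature mice lie above every Middle-aged mouse and all 7 lie above every ALL mouse; for Cxcl14, Middle-aged replicate 2 is highest at 52.0 CPM.

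Other ligands had positive values that did not pass the adjusted threshold. In all, 8 members had an unadjusted p under 0.05 with a positive logFC (12.2% of all genes) and 5 with a negative one (12.1%). Ccl11 had 9.17 to 16.8 CPM in Mature and 13.0 to 25.6 CPM in Middle-aged mice (logFC 0.38 ± 0.18 SE, adjusted p = 0.198, edgeR). Ccl24, a second eosinophil attractant, had 0.251 to 0.741 CPM and 0.410 to 1.43 CPM (logFC 0.90 ± 0.35 SE, adjusted p = 0.115). The groups overlapped for both genes, and their shared receptor Ccr3 was near 0, as given above. Ccl21b had 0.470 to 1.46 CPM and 1.03 to 2.095 CPM (logFC 0.47 ± 0.22 SE, adjusted p = 0.185, edgeR), and every 75-base word of its transcripts occurs in transcripts of other genes, among them Ccl21a. Of 7 lymphatic endothelial markers 2 fell (Prox1 and Reln) and none rose. At the higher and the lower mitochondrial share the logFC was −0.11 and 0.80 for Ccl11, 0.17 and 1.44 for Ccl24, and −0.035 and 0.92 for Ccl21b.

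Cxcl12 and Ccl25 had negative values. Cxcl12 ranged from 50.7 to 67.0 CPM in Mature (median 62.0 CPM) and from 43.7 to 56.4 CPM in Middle-aged mice (median 51.9 CPM). Middle-aged replicates 3 and 4 lay below every Mature mouse and the other 4 overlapped. The logFC was −0.25 ± 0.08 SE and the adjusted p 0.0502 in edgeR, beside 0.0265 in DESeq2. Within edgeR it was 0.0490 with RLE factors, 0.0408 in the likelihood ratio test and 0.0461 in the fit of 2 groups. It was 0.0457 at the higher mitochondrial share (logFC −0.41) and 0.592 at the lower (logFC −0.12). Leaving out Mature replicate 2 or 4, Middle-aged replicate 2 or 5 or ALL replicate 2 brought the adjusted p to 0.0372, 0.0207, 0.0369, 0.0410 and 0.0366. Ccl25 had 2.16 to 3.66 CPM in Mature and 1.60 to 2.82 CPM in Middle-aged mice (logFC −0.37 ± 0.14 SE, adjusted p = 0.104, edgeR). Endothelial markers, which include cells that make Cxcl12, were also lower: 8 of 12 fell, and their summed level was 299 to 395 CPM in Mature and 219 to 274 CPM in Middle-aged mice. Their part in this value, or in that of the endothelial receptor Ackr1 below, was not tested.

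Among receptors, Cx3cr1, the fractalkine receptor of patrolling monocytes and resident macrophages, had 5 to 17 counts per Mature library and 3 to 8 per Middle-aged library. Its logFC was −1.36 ± 0.45 SE (adjusted p = 0.0617, edgeR), and 3 of 6 Middle-aged mice lay below every Mature mouse. The adjusted p was 0.0390 in DESeq2, 0.00807 in the likelihood ratio test of edgeR, 0.0444 without Mature replicate 3 and 0.0210 without ALL replicate 4. The logFC of Ccr1, a receptor of inflammatory CC ligands, was −0.42 ± 0.41 SE (adjusted p = 0.573, edgeR). Cxcr4 was at 1.20 to 2.76 CPM in Mature and 1.37 to 2.62 CPM in Middle-aged mice (logFC −0.045 ± 0.21 SE, adjusted p = 0.925, edgeR). Of the signalling receptors tested, Ccr2 alone passed.

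The atypical receptors had values of both signs. Ackr1, which is carried by venular endothelium and red blood cells, had 0.123 to 1.16 CPM in Mature (median 0.775 CPM) and 0 to 0.508 CPM in Middle-aged mice (median 0.286 CPM). Mature replicate 1 stood well below the other Mature mice, and Middle-aged replicate 2 had 0 counts. The logFC was −1.49 ± 0.50 SE (adjusted p = 0.0664, edgeR), and without Mature replicate 1 it was −1.68 (adjusted p = 0.0222). The adjusted p was 0.0284 in DESeq2 and 0.0314 in the likelihood ratio test of edgeR, and the logFC was −0.79 (adjusted p = 0.505, edgeR) at the higher and −2.23 (adjusted p = 0.118) at the lower mitochondrial share. Of the 75-base words of Ackr1 transcripts, 16.9% are shared with the overlapping gene Cadm3. Ackr3 had 9.30 to 17.3 CPM in Mature and 12.4 to 19.7 CPM in Middle-aged mice (logFC 0.29 ± 0.13 SE, adjusted p = 0.185, edgeR). Without Mature replicate 1 its logFC was 0.38 (adjusted p = 0.0467), and at the higher and lower mitochondrial share it was −0.044 and 0.56. Ackr2, a scavenger of inflammatory CC ligands on lymphatic vessels, and Ackr4, a scavenger of Ccl19, Ccl21 and Ccl25, had values of −0.18 ± 0.23 SE and −0.57 ± 0.51 SE.

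**Figure D5:**
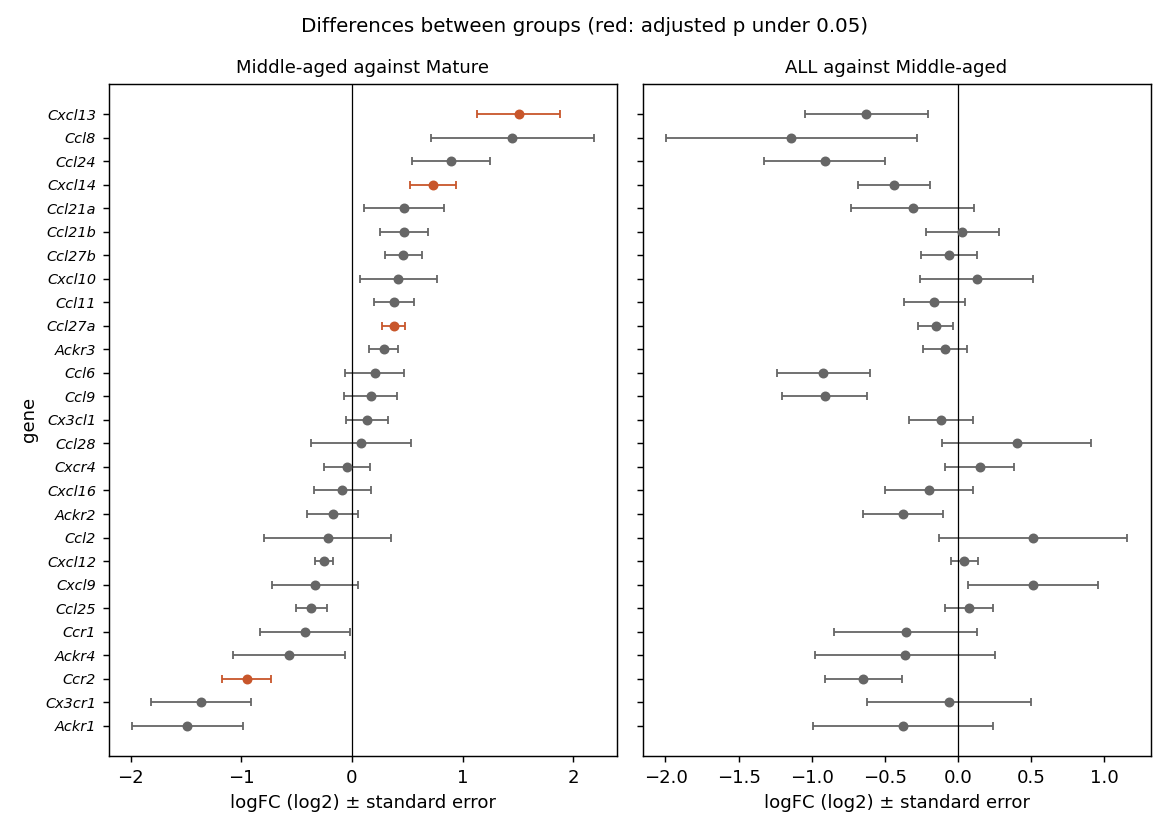
LogFC with standard error of 27 tested members for Middle-aged against Mature (left) and ALL against Middle-aged (right), in the order of the left panel; both comparisons share the Middle-aged mice. Red marks an edgeR adjusted p under 0.05: Cxcl13, Cxcl14, Ccl27a and Ccr2 on the left and none on the right.

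ALL mice were compared with Middle-aged mice to find members that differed with allulose at the same age. No member passed, and no gene did (0% of 16731 at an FDR under 0.05, edgeR quasi-likelihood test). DESeq2 called 5 genes and the likelihood ratio test of edgeR called 4, none of them a member. At an unadjusted p under 0.05, 0 members had a positive logFC (1.44% of all genes) and 4 a negative one (2.16%): Ccl6, Ccl9, Ccr2 and Ccl24. Ccl6, Ccl9 and Ccl24 are products of macrophages, and Ccr2 is carried by monocytes. The median logFC over the 28 members was −0.16, compared with −0.0047 over all genes, and 9 were above 0 (48.5% of all genes). Groups overlapped for every member, whereas 0.251% of all genes were higher and 0.227% lower without overlap.

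Ccl6 and Ccl9 both bind Ccr1 and lie next to each other on the minus strand of chromosome 11, Ccl9 at chr11:83572917-83578636 and Ccl6 at chr11:83587886-83593087. Ccl6 ranged from 2.44 to 6.17 CPM in Middle-aged mice with a median of 4.84 CPM, and was 3.43, 2.27, 2.30 and 1.62 CPM in ALL mice. ALL replicates 2, 3 and 4 lay below every Middle-aged mouse (logFC −0.92 ± 0.32 SE, unadjusted p = 0.00939, adjusted p = 1.0, edgeR). Ccl9 ranged from 2.04 to 4.49 CPM in Middle-aged mice with a median of 2.97 CPM, and was 2.12, 1.79, 1.68 and 1.15 CPM in ALL mice. The same 3 ALL mice lay below every Middle-aged mouse (logFC −0.91 ± 0.29 SE, unadjusted p = 0.00525, adjusted p = 1.0). The 2 genes also shared their order within groups: Mature replicates 1, 2 and 6 were the 3 highest Mature mice for both, and Middle-aged replicates 1, 2 and 5 the 3 highest Middle-aged mice. These 6 mice likewise had the highest summed macrophage markers of their groups, at 59.8 to 62.0 CPM and 57.04 to 81.4 CPM.

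The 2 promoters are shown because the genes are neighbours with the lowest unadjusted p of the members in this comparison. That of Ccl6 (chr11:83593038-83593337, minus strand) held none of the motifs, whereas that of Ccl9 (chr11:83578587-83578886, minus strand) held TATAAA at −224 and, on both strands of an overlapping stretch, at −94 and −92, TGANTCA at −53 and the NF-kB motif at −35. Positions count from the start, and matches are in capitals.
Ccl6: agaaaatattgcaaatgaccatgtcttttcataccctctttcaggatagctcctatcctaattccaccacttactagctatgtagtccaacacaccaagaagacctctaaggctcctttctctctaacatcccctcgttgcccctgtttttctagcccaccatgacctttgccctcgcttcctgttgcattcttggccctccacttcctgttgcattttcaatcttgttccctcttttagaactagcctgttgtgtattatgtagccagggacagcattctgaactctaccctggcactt
Ccl9: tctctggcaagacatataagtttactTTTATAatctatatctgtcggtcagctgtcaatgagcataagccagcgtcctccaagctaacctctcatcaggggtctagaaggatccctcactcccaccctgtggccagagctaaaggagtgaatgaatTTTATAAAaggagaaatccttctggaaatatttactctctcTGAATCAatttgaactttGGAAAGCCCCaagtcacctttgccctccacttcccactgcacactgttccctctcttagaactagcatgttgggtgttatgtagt

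Ccr2 was at 1.0, 1.55, 1.27 and 0.840 CPM in ALL mice, beside 1.33 to 2.48 CPM in Middle-aged mice. ALL replicates 1, 3 and 4 lay below every Middle-aged mouse (logFC −0.65 ± 0.26 SE, unadjusted p = 0.0241, adjusted p = 1.0, edgeR). Ccl24 was at 0.500, 0.893, 0.254 and 0.206 CPM in ALL mice, beside 0.410 to 1.43 CPM in Middle-aged mice. ALL replicates 3 and 4 were below that range (logFC −0.91 ± 0.42 SE, unadjusted p = 0.0410, adjusted p = 1.0). The summed level of the 12 macrophage markers was 21.9 to 49.4 CPM in ALL and 39.8 to 81.4 CPM in Middle-aged mice, with a median logFC of −0.66 and none past the threshold. Its part in these values was not tested. Among the cell types with at least 6 markers tested, adipocytes and mast cells had a lower median logFC still. Adipocyte markers had a median of −1.95 and summed to 136 to 175 CPM in ALL and 150 to 359 CPM in Middle-aged mice, with none of 8 past the threshold. The 6 mast cell markers tested had a median of −1.45, a summed level of 6.65 to 10.6 CPM in ALL and 7.74 to 22.9 CPM in Middle-aged mice, and none past the threshold, with Cma1, Tpsb2, Mcpt4 and Cpa3 at an unadjusted p under 0.05. The part of these cells was not tested either.

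The members that differed with age were not called with allulose. Cxcl14 had a logFC of −0.44 ± 0.25 SE, Cxcl13 of −0.63 ± 0.42 SE and Ccl27a of −0.15 ± 0.12 SE between ALL and Middle-aged mice (unadjusted p = 0.0908, 0.152 and 0.224, edgeR). ALL replicate 2 overlapped with the upper Middle-aged mice for Cxcl14, and the other 3 lay below every one of them. Cxcl12 had a logFC of 0.044 ± 0.092 SE and Ackr3 of −0.087 ± 0.15 SE. These comparisons share the Middle-aged mice with the age comparison, so opposite signs in both are not independent.

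ALL mice were then set against Mature mice, a comparison that differs in age and diet and shares its mice with the other comparisons. Ccr2 alone passed, 1 of 28 members compared with 6.5% of all genes (0 higher and 1 lower, compared with 3.32% and 3.18%). All 4 ALL mice, at 0.840 to 1.55 CPM, lay below all 7 Mature mice, at 1.71 to 5.10 CPM, which held downward for 1 member (2.84% of all genes) and upward for 0 (3.2%). The logFC was above 0 for 15 members, compared with 48.8% of all genes. The level in ALL mice was 0.330 times that in Mature mice (logFC −1.60 ± 0.26 SE, adjusted p = 0.00138, edgeR). Ackr1, Cx3cr1, Ccl9, Ccl6 and Cxcl12 had negative values at an unadjusted p under 0.05 (6 members with Ccr2, 11.4% of all genes), and Ccl27b a positive one (1 member, 11.3%). Among them Ackr1 had the lowest, a logFC of −1.86 ± 0.60 SE (adjusted p = 0.0680, edgeR), with 11, 12, 13 and 19 counts per ALL library. Cxcl14, Cxcl13 and Ccl27a, which rose between Mature and Middle-aged mice, had values of 0.29 ± 0.24 SE, 0.88 ± 0.42 SE and 0.23 ± 0.12 SE.

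Single mice set many of the extremes. Middle-aged replicate 2 was the highest mouse of its group for 17 of 28 members, compared with 19.0% of all genes, and ALL replicate 2 was the highest of its group for 19 of 28, compared with 31.7%. ALL replicate 4 was lowest for 17 of 28 (26.1% of all genes), and Mature replicate 5 for 10 of 28 (15.2%). Members thus tended to be high or low in the same mouse, and their differences between groups are not independent of each other. Without Middle-aged replicate 2, or without Middle-aged replicate 5, Cxcl13 was the 1 member that rose with age, and both Ccr2 and Cxcl12 fell.

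Genes upstream and downstream of the family were examined as lists. Of 9 chemokines and related receptors outside the symbol rule, none was called in any comparison. Platelet factor Pf4 had a logFC of 0.75 ± 0.36 SE with age (adjusted p = 0.210, edgeR), and the chemerin receptor Cmklr1 of 0.44 ± 0.15 SE (adjusted p = 0.0634). Of 16 tested genes of the G protein and arrestin arm, the receptor kinase Grk2 rose with age (logFC 0.17 ± 0.05 SE, adjusted p = 0.0454, edgeR). The G protein subunit Gng2 and the kinase Grk5 fell (logFC −0.90 and −0.55, adjusted p = 0.00213 and 0.0238). Of 15 genes that link receptors to the cytoskeleton, Elmo1, a partner of Rac activators, fell (logFC −0.75 ± 0.14 SE, adjusted p = 0.00236, edgeR) and none rose.

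Of 21 inducers and regulators of chemokine transcription, 15 were tested. The NF-kB subunits Nfkb2 and Relb rose with age (logFC 0.55 ± 0.08 SE and 0.52 ± 0.12 SE, adjusted p = 0.00021 and 0.00895, edgeR), as did Zfp36, which destabilises cytokine mRNA (logFC 1.02 ± 0.26 SE, adjusted p = 0.0164). The interferon-responsive factor Irf1 fell (logFC −0.41 ± 0.13 SE, adjusted p = 0.0450, edgeR). The cytokines Tnf, Il1a, Il1b, Ifng, Il4 and Il13 did not pass the filter. Of 9 tested proteases and proteoglycans that process or hold chemokines, the gelatinase Mmp9 rose (logFC 1.57 ± 0.43 SE, adjusted p = 0.0254, edgeR) and the heparan sulphate proteoglycan Sdc1 fell (logFC −0.61 ± 0.14 SE, adjusted p = 0.00961). Over the 5 lists, 5 genes rose and 5 fell with age, 0 were called between ALL and Middle-aged mice, and 2 rose and 4 fell between Mature and ALL mice.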

How the data were processed

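Messenger RNA of gastrocnemius muscle was sequenced from individual mice (TruSeq Stranded mRNA kit). The authors deposited counts per gene, not normalized, and TPM per gene, both used here; 35 further value columns were not used, 18 of mice outside the 3 groups and 17 of FPKM. The submitters' processing notes name FastQC 0.11.7, Trimmomatic 0.38, HISAT2 2.1.0, featureCounts and mm10, whereas the paper names STAR and StringTie, and which of these made the counts could not be settled. The labels name the tissue in more than 1 way, and gastrocnemius was used. The paper and the labels differ on starting age, and the labels were used.

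The test of differences was edgeR 4.0.16 run under R 4.3.3 (filterByExpr at a minimum count 10, TMM, quasi-likelihood F test on 3 groups with 14 residual degrees of freedom, Benjamini-Hochberg adjustment over 16731 genes, threshold 0.05). Fold changes used a prior count of 0.125. CPM are on TMM-scaled library sizes. No pseudocount was added to TPM, which were used as levels only. DESeq2 1.42.0 served as an alternative, with scaling by library size alone, RLE factors, mitochondrial genes left out, no filter, the likelihood ratio test, a replicate block, mitochondrial share as a covariate, the 2 groups alone, and each mouse left out. The mitochondrial sets and the joint removal of Mature replicates 5 and 7 were chosen after seeing the data. The test was checked on simulated counts. Libraries held 49774656 to 72640511 counts, and a logFC had a median SE of 0.121 in the age comparison and 0.14 in the allulose comparison. No library repeated another of its own group, since chi-square per gene was at least 19.5 in each of the 42 within-group pairs. Pairs between groups were not checked in this way.

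Named with values were members called in any comparison, those at an unadjusted p under 0.05 in either comparison with Middle-aged mice, and the 5 most abundant by logCPM. The members and lists were chosen with earlier results of these data known. Gene positions and promoters are from RefSeq (GRCm38.p6), matched by gene ID. Positions were found for all 60 members and promoters for 46. Shared sequence was counted as words of 75 bases between GENCODE transcripts. The values of 1 tested member are not reported here. Plots were made with matplotlib 3.10.9 under Python 3.11.15.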

Additional observations from a re-analysis of the deposited data

Results flagged for a closer look

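Each named member was checked in each group for a mouse far from the others, over 45 groups, a check that chance meets in about 1 in 20 groups. Ccl27a was at 5.70 CPM in Mature replicate 5, and the nearest Mature mouse was at 4.55 CPM. Cx3cr1 was at 0 CPM in ALL replicate 4, and the nearest ALL mouse was at 0.0952 CPM, which is 6 counts. Cxcl12 was at 60.2 CPM in ALL replicate 2, and the nearest ALL mouse was at 50.1 CPM.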

How the results depend on the processing

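Of 768 recomputed values of single genes, 3 changed sign, all for Middle-aged against Mature in libraries with a mitochondrial share of 20% or more: Ackr3 (−0.044), Ccl11 (−0.11) and Ccl21b (−0.035). The causes of the changes given here were not tested, but each mitochondrial set holds fewer libraries. With age, 3 members rose and 1 fell. The number that rose was 1 without Mature replicates 5 and 7, and 0 in each mitochondrial set. The number that fell was 4 in DESeq2 and in the likelihood ratio test, 2 with RLE factors and in the fit of 2 groups, and 3 at the higher and 0 at the lower mitochondrial share. Leaving out 1 mouse at a time, 1 to 4 rose and 1 to 2 fell. From Mature to ALL mice 1 member fell, and this was 2 in DESeq2, in the fit of 2 groups and without Mature replicates 5 and 7, 3 in the likelihood ratio test, and 1 to 2 with 1 mouse left out. No member was called with allulose in any alternative that was run.

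Of the pathway genes, 5 rose and 5 fell with age. With library size alone 3 fell, without Mature replicates 5 and 7 3 rose, at the lower mitochondrial share 1 rose and 1 fell, and with 1 mouse left out 3 to 6 rose and 3 to 5 fell. From Mature to ALL mice 2 rose and 4 fell. These were 1 and 2 with library size alone, 1 and 1 with the replicate block and 0 and 0 at the lower mitochondrial share, while 1 rose in the fit of 2 groups, 2 fell with no filter, and 0 to 2 rose and 0 to 5 fell with 1 mouse left out. Of the cell type markers, 5 rose and 33 fell with age. With the replicate block or in either mitochondrial set 3 rose, at the lower share 16 fell, and with 1 mouse left out 3 to 7 rose and 31 to 36 fell. From Mature to ALL mice 3 rose and 24 fell. With the replicate block or at the lower share 1 rose, 15 fell with no filter and with the block and 14 at the lower share, and with 1 mouse left out 1 to 3 rose and 11 to 25 fell.

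Whether replicate numbers pair the mice was not settled. Deviations of same-numbered mice correlated at a median of 0.063 over 14 pairs (−0.18 to 0.24), beside −0.0062 over 80 other pairs between groups. The best match had the same number in 11 of 28 checks. The replicate block changed no call of a member. At this depth 14 of 19 signalling receptors and 18 of 37 ligands were under the filter.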
